A study of Mus musculus with 32 samples.

Results

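CD206+ macrophages sorted from the epididymal fat of mice with a myeloid-specific knockout of A20 (KO) were compared with the same sort from wild-type mice (WT), both kept on standard diet for 12 weeks. The comparison rests on 8 of the 32 libraries of the series, 4 KO and 4 WT. They were chosen by their labels alone. All mice were C57BL/6J. The remaining 24 libraries are the CD206+ cells of the same genotypes on high-fat diet (HFD) and the CD11c+ cells on both diets; the CD206+ HFD and CD11c+ standard diet libraries are used here for comparison. The promoter that drives the deletion is not given in the sources used here. Nothing in the labels says that each library is a separate mouse; if several share an animal, the p-values reflect technical spread among libraries.

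A20, the product of Tnfaip3, is a ubiquitin-editing enzyme that shuts down signalling from tumour necrosis factor receptors, toll-like receptors and interleukin-1 receptors to the transcription factor NF-kB. It is itself induced by NF-kB and so closes a feedback loop. CD206, the mannose receptor encoded by Mrc1, marks the resident-type macrophages of fat, which clear debris, recycle iron and express a set of scavenger and lectin receptors. CD11c, encoded by Itgax, marks macrophages that accumulate in fat during obesity.

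The 8 libraries held 17619638 to 21588411 reads assigned to genes, with 15169 to 15656 genes detected in each. In a principal component analysis of the 8, the first component held 65.7% of the variance and separated the genotypes, and KO library 4 lay apart from the other KO libraries on the second (9.62%). In the analysis of all 32 libraries, the third component (13.4%) placed the 8 WT standard diet libraries of both populations between -43.7 and -31.1, and the other 24 libraries between 0.857 and 30.9. The labels name no batch, so whatever sets the WT standard diet libraries apart and the genotype cannot be told apart within this diet. Of 24421 genes, 13453 passed the filter on low counts. Values are counts per 1000000 (CPM) scaled by the trimmed mean of M values, means carry ± 1 standard deviation over 4 libraries, and fold changes are log2 of KO over WT ± standard error from edgeR's quasi-likelihood test with Benjamini-Hochberg adjustment over all 13453 genes.

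The deleted gene was still counted in KO cells, at a lower level. Tnfaip3 stood at 245, 277, 314 and 214 CPM in KO libraries, against 662, 668, 738 and 486 CPM in WT libraries. All KO libraries were below all WT libraries (log2 fold change -1.28 ± 0.20, adjusted p = 1.33e-05). The gene lies at chr10:19000910-19015410 (GRCm38). Counts per gene cannot show whether the remaining reads come from an inactive transcript. Mrc1, the gene of the sort marker, averaged 1592 ± 223 CPM in KO cells and 1893 ± 256 CPM in WT cells and did not pass the test (-0.25 ± 0.11, adjusted p = 0.112). Itgax was low in both, at 4.54 ± 2.64 CPM in KO cells and 3.63 ± 1.98 CPM in WT cells (0.30 ± 0.36, adjusted p = 0.609), and leaving out KO library 4 turned its sign (-0.12). Lyz2, the myeloid lysozyme gene, averaged 10173 ± 1381 CPM in KO cells and 12928 ± 2371 CPM in WT cells (-0.35 ± 0.13, adjusted p = 0.0526). Of 12 genes that identify macrophages in fat, all were tested and 6 rose: Fcgr1 (1.09 ± 0.23), Adgre1 (0.70 ± 0.13), Cd14 (0.66 ± 0.21), Ptprc (0.58 ± 0.16), Itgam (0.51 ± 0.16) and Spi1 (0.29 ± 0.08). Ptprc lost its call without KO library 4 (adjusted p = 0.0539 without KO library 4), and Itgam without several (adjusted p = 0.0501 to 0.0556 without KO library 4 or WT library 1 or 2). Lyz2 passed under some other settings, at an adjusted p = 0.0347 with DESeq2, 0.0415 with a filter of at least 1 CPM on average, 0.0293 without KO library 1 and 0.0227 without WT library 3.

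The genotypes differed in a large share of the genes tested. At an adjusted p under 0.05, 3300 genes changed (24.5% of those tested), of which 1594 rose (11.8%) and 1706 fell (12.7%). KO and WT libraries did not overlap for 3714 genes (27.6%). The shares of 11.8% up and 12.7% down are the background for the standard diet counts of list members below. The median over all genes was -0.03. By more than 1 on the log2 scale, 495 genes rose and 862 fell. By more than 2, 204 rose and 192 fell, and by more than 3, 86 rose and 58 fell. Without KO library 4, 1402 genes rose and 1120 fell.

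**Figure D1:**
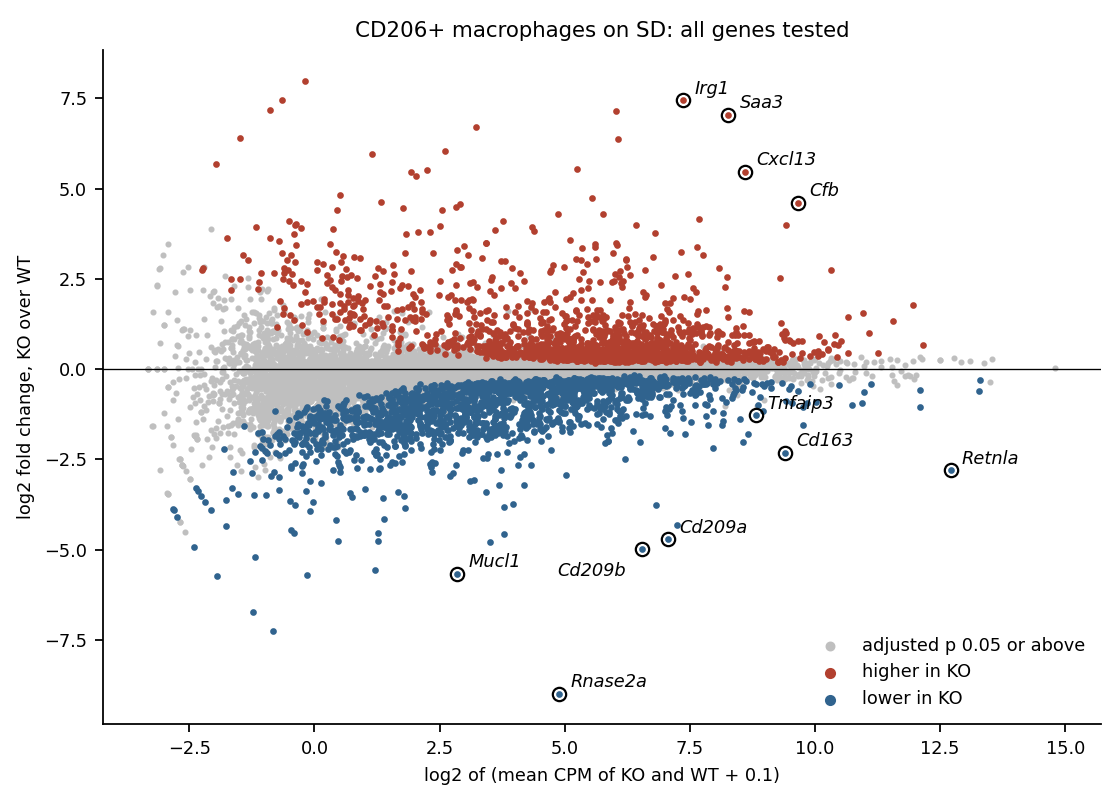
Log2 fold change of KO over WT CD206+ cells on standard diet (vertical axis) against log2 of the mean CPM of the 2 groups plus 0.1 (horizontal axis) for the 13453 genes tested; coloured points are the 1594 genes that rose and the 1706 that fell at an adjusted p under 0.05. Rings mark some of the genes given in the text; among them Irg1 (7.44 ± 0.73) lies highest and Rnase2a (-8.99 ± 0.94) lowest.

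Among genes that reached 10 CPM and whose KO and WT libraries did not overlap, the highest fold changes included genes of inflammatory and antimicrobial responses. Irg1 (chr14:103047012-103056573), whose enzyme makes the antimicrobial metabolite itaconate, had 165, 121, 238 and 786 CPM in KO libraries, against 0.909, 2.08, 0.857 and 3.82 CPM in WT libraries. Every KO library was above every WT library (7.44 ± 0.73, adjusted p = 9.43e-09), with KO library 4 highest; without it the fold change was 6.56. Saa3, an acute-phase serum amyloid A, had 683, 273, 651 and 842 CPM in KO libraries, against 2.15, 3.61, 2.9 and 10.1 CPM in WT libraries. Saa3 was high in all KO libraries (7.04 ± 0.55, adjusted p = 1.71e-10), and WT library 4 was the highest of the WT libraries; without it the fold change was 7.76.

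Both formyl peptide receptors of the 12 largest increases, which detect peptides of bacteria and mitochondria, rose together. Fpr1 had 92.4, 81.2, 138 and 205 CPM in KO libraries, against 0.813, 0.833, 0.333 and 1.75 CPM in WT libraries, and its groups did not overlap (7.14 ± 0.60, adjusted p = 6.6e-10). Fpr2 had 52.4, 52.4, 65.3 and 124 CPM in KO libraries, against 1.72, 1.3, 1.57 and 1.75 CPM in WT libraries (5.54 ± 0.39, adjusted p = 3.34e-11). Ccl5, a chemokine that attracts T cells, had 124, 79.9, 122 and 204 CPM in KO libraries, against 1.63, 1.99, 1.67 and 1.04 CPM in WT libraries, with every WT library under 2 CPM (6.37 ± 0.35, adjusted p = 1.84e-13). Cxcl13, which attracts B cells, averaged 757 ± 22.4 CPM in KO cells and 17.3 ± 5.94 CPM in WT cells (5.45 ± 0.55). Cfb, complement factor B of the alternative pathway, averaged 1547 ± 255 CPM in KO cells and 63.8 ± 9.5 CPM in WT cells (4.60 ± 0.28). The rest of the 12 were Colq, the collagen tail of acetylcholinesterase (6.70 ± 0.80, 7.72 without WT library 1), the surface proteins Ly6i (6.05 ± 0.75, 5.28 without KO library 4) and Ly6c2, the scavenger receptor Marco (4.75 ± 0.68) and the titin gene Ttn (4.50 ± 0.51). By smallest p, Pgap2, which remodels glycolipid anchors (1.18 ± 0.08, adjusted p = 3.34e-11), and Cd4 (3.45 ± 0.23, adjusted p = 1.4e-11) stood with Ccl5, Cfb and Fpr2.

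Under the same criteria, the largest decreases included a family of lectin genes. Cd209b had 7.44, 7.97, 4.19 and 3.01 CPM in KO libraries, against 189.8, 165, 202 and 161 CPM in WT libraries. Its KO libraries were all below its WT libraries (-4.99 ± 0.49, adjusted p = 1.07e-08). Cd209a (-4.71 ± 0.55), Cd209d (-4.32 ± 0.51) and Cd209e (-3.73 ± 0.52) fell too; all are C-type lectins of the DC-SIGN family, and reads of such related genes may be assigned unevenly. Rnase2a had 0.198, 0.243, 0 and 0 CPM in KO libraries, against 68, 117, 43.9 and 7.37 CPM in WT libraries (-8.99 ± 0.94, adjusted p = 2.41e-08), and its fold change was -9.66 without KO library 2 and -8.39 without WT library 2. Rnase2a and Ear2 (-4.80 ± 0.42, adjusted p = 1.35e-09) encode closely related ribonucleases, so their counts are uncertain. Slc40a1, the iron exporter ferroportin, had 11.4, 19.2, 12.2 and 19.1 CPM in KO libraries, against 128, 249, 162 and 306 CPM in WT libraries (-3.77 ± 0.55, adjusted p = 6.8e-06). The remaining large decreases were Mucl1 (-5.66 ± 0.56), Ndnf (-4.58 ± 0.47), Aff3 (-3.81 ± 0.43), Rem1 (-3.41 ± 0.33) and Sec16b (-3.22 ± 0.46), with Mucl1 at -7.10 and Sec16b at -3.88 without KO library 1. The decreases with the smallest p included Apbb1 (-3.21 ± 0.28), Cxxc5 (-2.87 ± 0.26), Matk (-1.50 ± 0.12) and Slc9a4 (-2.67 ± 0.23); Apbb1 encodes an adaptor that binds the amyloid precursor protein and Matk a tyrosine kinase.

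**Figure D2:**
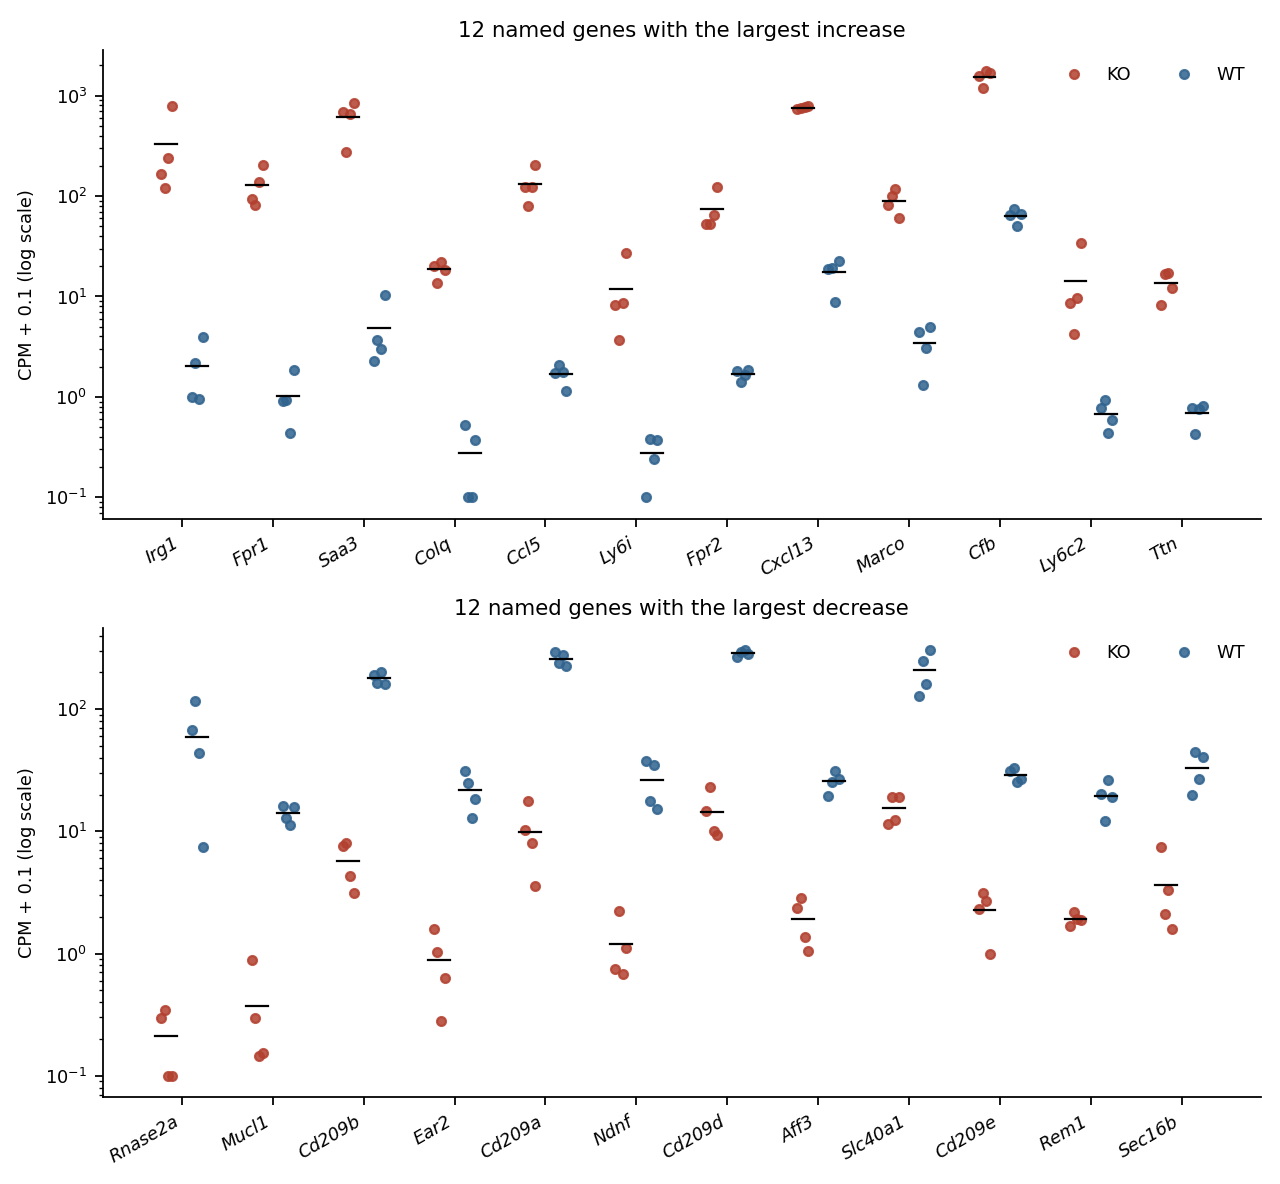
CPM plus 0.1 (log axis) in each KO and WT CD206+ library on standard diet for the 12 named genes with the largest increases and the 12 with the largest decreases; points are single libraries and lines are group means. For every gene drawn, the KO and WT libraries do not overlap, which the naming rule required.

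Many NF-kB pathway genes rose in KO cells. Of 27 listed genes, 15 rose and 1, Nfkbia, fell, with a median of 0.42. The list holds NF-kB subunits and feedback inhibitors, and other pathway genes such as Tnfaip2, Traf1 and Birc3. Tnfaip2 averaged 303 ± 140.4 CPM in KO cells and 49.2 ± 8.66 CPM in WT cells (2.62 ± 0.23, adjusted p = 9.98e-10). Tnip1, whose protein binds A20, had 74, 57.9, 69.9 and 81 CPM in KO libraries, against 28.1, 27.1, 22.8 and 25.5 CPM in WT libraries. Its groups did not overlap (1.45 ± 0.13, adjusted p = 1.35e-09). Traf1 (1.65 ± 0.18), the ribonuclease gene N4bp1 (1.37 ± 0.20), Relb (1.23 ± 0.12), Nfkb2 (0.72 ± 0.13) and Nfkb1 (0.42 ± 0.12) rose. Nfkbia, the inhibitor IkB-alpha, averaged 816 ± 57.4 CPM in KO cells and 1093 ± 82.1 CPM in WT cells (-0.42 ± 0.11, adjusted p = 0.00556). The subunit genes Rela (0.21 ± 0.09, adjusted p = 0.0729) and Rel (0.02 ± 0.13, adjusted p = 0.924) did not pass the test, Rela reaching an adjusted p = 0.0307 to 0.0439 without KO library 3, KO library 4 or WT library 1 and 0.0474 in a fit of the 8 libraries alone. On HFD, 2930 genes differed between KO and WT CD206+ cells (21.8%), with 10.5% of all genes up and 11.3% down. There 9 of the 27 rose and 3 fell. The test of the difference between diets called 7 of the 27, all higher on standard diet, against 6.63% of all genes.

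Some interferon pathway genes rose among the receptors and ligands, among the regulatory factors and among the targets. Of the 8 tested receptor and ligand genes, 6 rose, namely Ifng, the gene of interferon gamma, with Jak2 (0.96 ± 0.16), Ifngr2 (0.70 ± 0.11), Ifnar1 (0.44 ± 0.11), Ifngr1 (0.32 ± 0.08) and Ifnar2 (0.28 ± 0.08). Ifnar2 was not called without WT library 3 (adjusted p = 0.0604 without WT library 3). Ifng had 1.39, 0.243, 0.541 and 6.82 CPM in KO libraries, against 0, 0.231, 0.238 and 0.109 CPM in WT libraries; it was low, KO library 2 lay near the WT libraries and KO library 4 was highest (3.88 ± 0.97, adjusted p = 0.00349; adjusted p = 0.0789 without KO library 4; log2 fold change 2.29). Jak1 (adjusted p = 0.983) and Tyk2 (adjusted p = 0.234) did not pass the edgeR test, and Ifnb1 did not pass the filter. On HFD 1 of the 8 receptor and ligand genes rose. The difference between diets was called for 2 of the 8, both higher on standard diet, against 6.63% of all genes. Among 19 interferon regulatory factor and STAT genes, 7 rose and 1 fell. Irf7, a factor that amplifies type I interferon, had 232, 223, 372 and 324 CPM in KO libraries, against 25, 38.8, 28.7 and 28.1 CPM in WT libraries. The KO libraries were all higher (3.25 ± 0.24, adjusted p = 6.17e-11). Irf1 rose (0.76 ± 0.20), as did Socs1, an inhibitor of the pathway (0.93 ± 0.25; adjusted p = 0.066 without KO library 4). Irf4 fell (-1.01 ± 0.22).

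Of 50 interferon response genes, all were tested, 47 rose and none fell, with a median of 1.20; Mx2, Ifi27l2a and Oas2 did not pass, although Ifi27l2a and Oas2 reached an adjusted p = 0.0223 and 0.0429 without WT library 2. Oas2 also passed with DESeq2 (adjusted p = 0.0472) and in a fit of the 8 libraries alone (adjusted p = 0.000808). Ifit2, which binds foreign RNA, had 94.4, 88.1, 157 and 194 CPM in KO libraries, against 17.7, 19.9, 11.8 and 14.8 CPM in WT libraries (3.05 ± 0.30, adjusted p = 8.55e-09). Oas3, a sensor of double-stranded RNA, had 57.8, 61.7, 92.3 and 95 CPM in KO libraries, against 9.09, 10.5, 8.81 and 12.1 CPM in WT libraries (2.92 ± 0.29, adjusted p = 9.43e-09). No WT library reached a KO library in either gene. Ifi44 (3.86 ± 0.39), Zbp1 (2.82 ± 0.26), Cxcl10 (2.58 ± 0.43), Rsad2 (2.41 ± 0.26) and Isg15 (2.15 ± 0.21) also rose, Cxcl10 by 1.86 without KO library 4. Cxcl9 had 83.2, 66.3, 81.1 and 255 CPM in KO libraries, against 8.32, 16.2, 6.57 and 13.8 CPM in WT libraries; KO library 4 was far above the other KO libraries (3.43 ± 0.49, adjusted p = 5.06e-06, 2.80 without it). Oas1a and Oas1g are near-identical copies, so their values are uncertain. On HFD 46 of the 50 rose, with a median of 1.22, and in CD11c+ cells on standard diet, where 3607 genes differed (26.8%), 46 rose.

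All 15 tested interferon-inducible GTPases, which attack the vacuoles of intracellular pathogens, rose, with a median of 2.69; Gbp11 did not pass the filter. Gbp2 had 272, 212, 347 and 734 CPM in KO libraries, against 37.1, 53.5, 31 and 52.3 CPM in WT libraries. Its groups did not overlap (3.17 ± 0.37, adjusted p = 1.96e-07). Iigp1 had 301, 247, 324 and 576 CPM in KO libraries, against 30.7, 37.2, 22.8 and 49.6 CPM in WT libraries (3.37 ± 0.39, adjusted p = 1.48e-07). Gbp6 (3.56 ± 0.39), Gbp8 (3.81 ± 0.44), Gbp5 (2.69 ± 0.44), Tgtp2 (3.04 ± 0.36), Igtp (2.00 ± 0.29), Irgm1 (1.96 ± 0.27), Gbp3 (1.57 ± 0.25), Irgm2 (1.52 ± 0.23) and Gbp7 (1.11 ± 0.19) rose too, and Gbp5 was 2.1 without KO library 4, when the median of the list was 2.1. Tgtp1 rose (1.73 ± 0.52; adjusted p = 0.0535 to 0.121 without KO library 4 or WT library 3). Members of this family lie in tandem and share sequence, so single values are uncertain where reads could fall on several copies.

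The promoters of these GTPases share the core of the interferon-stimulated response element, the site bound by interferon factors. The core was searched as GAAA, any 2 bases and GAAA on both strands of the 250 bases before each RefSeq start (GRCm38.p6). It stood in 936 of 27025 genes (3.46%), in 9 of the 9 GTPases with a promoter in the table (100%), in 12 of 39 interferon response genes (30.8%) and in 3 of 15 genes of class I presentation (20%). A match is a run of letters and not a measured binding site. The windows show the core in capitals with its flanks, read 5′ to 3′ along the gene's strand, where TTTC at the start of the capitals marks a match on the opposite strand.
Gbp2: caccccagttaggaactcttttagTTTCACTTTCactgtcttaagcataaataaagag
Gbp3: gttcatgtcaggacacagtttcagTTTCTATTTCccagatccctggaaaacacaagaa
Gbp5: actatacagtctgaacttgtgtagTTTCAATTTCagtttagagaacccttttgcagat
Gbp7: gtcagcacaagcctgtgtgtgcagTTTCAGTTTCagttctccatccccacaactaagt
Igtp: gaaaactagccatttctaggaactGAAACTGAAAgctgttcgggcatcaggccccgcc
Irgm2: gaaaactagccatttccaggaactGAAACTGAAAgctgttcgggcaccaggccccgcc
Irgm1: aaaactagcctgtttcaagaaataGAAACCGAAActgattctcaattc
Tgtp1: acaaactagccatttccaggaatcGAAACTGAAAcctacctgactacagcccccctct
Tgtp2: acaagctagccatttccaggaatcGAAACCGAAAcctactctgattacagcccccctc
Oas3: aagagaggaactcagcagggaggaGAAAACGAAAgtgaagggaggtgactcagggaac
These windows lie at Gbp2 at chr3:142620580-142620637 (plus strand), Gbp3 at chr3:142559981-142560038 (plus strand), Gbp5 at chr3:142496745-142496802 (plus strand), Gbp7 at chr3:142530259-142530316 (plus strand), Igtp at chr11:58199498-58199555 (plus strand), Irgm2 at chr11:58214889-58214946 (plus strand), Irgm1 at chr11:48871421-48871468 (minus strand), Tgtp1 at chr11:48992290-48992347 (minus strand), Tgtp2 at chr11:49064249-49064306 (minus strand) and Oas3 at chr5:120777701-120777758 (minus strand). The Igtp and Irgm2 windows were alike at 56 of 58 bases. Their nearest core base lay 25 bases before the start of Igtp and 55 bases before that of Irgm2.

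The kappa B form bound by NF-kB was searched as GGGA, any base and TTTCC in the same way. It stood in 112 of the 27025 genes (0.414%). By list, it stood in 3 of 21 genes of the NF-kB list (14.3%), 3 of 17 chemokines (17.6%) and 2 of 21 cytokines (9.52%). It is shown for a gene that rose, Nfkb2, one that did not pass the test, Cxcl2 (0.19 ± 0.23, adjusted p = 0.594), and one that fell, Il6 (-1.01 ± 0.37, adjusted p = 0.0432).
Nfkb2: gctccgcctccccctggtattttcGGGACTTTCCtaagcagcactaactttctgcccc
Cxcl2: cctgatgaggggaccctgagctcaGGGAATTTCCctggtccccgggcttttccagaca
Il6: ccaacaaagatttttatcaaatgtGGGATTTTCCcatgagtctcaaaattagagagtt
They lie at Nfkb2 at chr19:46305681-46305738 (plus strand), Cxcl2 at chr5:90903778-90903835 (plus strand) and Il6 at chr5:30013046-30013103 (plus strand). Of the 8 listed genes with this form, 2 rose, 2 fell and 4 did not pass.

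Class I presentation rose as a whole. All 19 tested genes of the list passed the test and were higher in KO cells, with a median of 1.34; H2-Q6 and H2-Q7 did not pass the filter. H2-K1, a classical heavy chain, had 3077, 2692, 2997 and 3044 CPM in KO libraries, against 909.7, 1157, 893 and 1056 CPM in WT libraries. The KO libraries were all higher (1.56 ± 0.16, adjusted p = 2.34e-08). B2m, the shared light chain, averaged 4346 ± 999 CPM in KO cells and 1717 ± 271 CPM in WT cells (1.34 ± 0.16, adjusted p = 2.66e-07). Nlrc5, the factor that switches on class I genes, had 62.3, 64.2, 82.1 and 92.1 CPM in KO libraries, against 10.9, 16.4, 12 and 15.8 CPM in WT libraries (2.45 ± 0.23, adjusted p = 7.11e-09). Tap1, the peptide transporter, averaged 320.0 ± 71.2 CPM in KO cells and 72.5 ± 7.34 CPM in WT cells (2.14 ± 0.25), and H2-Q4 averaged 54.8 ± 9.57 CPM in KO cells and 13.7 ± 2.33 CPM in WT cells (2.00 ± 0.21); H2-Q genes are close copies.

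Class II genes did not move as a list. Of 12, 2 rose and 1 fell, with a median of 0.14. The chain genes H2-Aa averaged 9389 ± 587 CPM in KO cells and 8035 ± 1057 CPM in WT cells (0.22 ± 0.12, adjusted p = 0.201) and H2-Ab1 averaged 13099 ± 1152 CPM in KO cells and 10734 ± 1709 CPM in WT cells (0.29 ± 0.13, adjusted p = 0.117; adjusted p = 0.0316 without WT library 1). Ctss, the protease that trims the invariant chain, rose (0.95 ± 0.13), H2-Eb2 rose (2.77 ± 0.57, 3.35 without WT library 1) and H2-DMb2 fell (-1.15 ± 0.31). On HFD 9 of the 12 rose, against 10.5% of all genes, with a median of 0.64. The test of the difference between diets called only 1 of the 12, against 11.9% of all genes.

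Among 12 tested co-stimulatory and checkpoint genes, 5 rose and 1 fell. Cd274, which encodes the checkpoint ligand PD-L1, had 90.4, 75.9, 93.4 and 217 CPM in KO libraries, against 19.5, 18.9, 14.3 and 19.1 CPM in WT libraries. KO library 4 was the highest, and the groups did not overlap (2.73 ± 0.33, adjusted p = 3.39e-07). The co-stimulatory receptor gene Cd40 (1.31 ± 0.16), Lgals9 (0.75 ± 0.12), Pdcd1lg2 (2.09 ± 0.48) and Icam1 (0.48 ± 0.16; adjusted p = 0.0512 to 0.118 without KO library 4 or WT library 2 or 3) rose. Icosl fell (-0.49 ± 0.16; adjusted p = 0.0581 to 0.101 without KO library 2 or WT library 1 or 4).

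More chemokine genes rose than fell. Of 25 tested, 10 rose and 4 fell, against 11.8% and 12.7% of all genes. The share that fell was near that of all genes. Their median was 0.60, which was 0.18 without KO library 2. Ccl8 averaged 2219.7 ± 413 CPM in KO cells and 334 ± 164 CPM in WT cells (2.73 ± 0.44) and joined Ccl5, Cxcl13, Cxcl9 and Cxcl10 on the rising side. Ccl24, an attractant of eosinophils, had 101, 158, 65.3 and 35.9 CPM in KO libraries, against 439.9, 309, 479.5 and 415 CPM in WT libraries. All KO libraries were lower (-2.19 ± 0.30, adjusted p = 2.78e-06). Cxcl12 (-1.36 ± 0.27), Pf4 (-0.60 ± 0.20; adjusted p = 0.0622 to 0.111 without KO library 3 or 4 or WT library 1, 2 or 4) and the barely detected Ccl17 (-3.61 ± 1.34; adjusted p = 0.0536 to 0.133 without KO library 1, 2 or 4 or WT library 1, 2, 3 or 4; log2 fold change -5.90 without KO library 3) fell as well. Without KO library 4, or WT library 1, 2 or 4, 2 of the 25 fell.

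Among 27 tested cytokine and inflammasome genes, 14 rose and 1 fell. Il12b, a subunit shared by interleukins that drive T-cell responses, had 8.73, 7.05, 10.5 and 2.75 CPM in KO libraries, against 0.0957, 0.185, 0.0476 and 0.327 CPM in WT libraries. It was near 0 in WT cells (5.45 ± 0.92, adjusted p = 4.51e-05). Il27 (3.23 ± 0.53), the interleukin-18 antagonist gene Il18bp (2.75 ± 0.28), Mefv, which encodes the inflammasome sensor pyrin (2.55 ± 0.40), Il18 (0.98 ± 0.17), Casp1 (0.94 ± 0.10) and the anti-inflammatory Il10 (1.63 ± 0.26) rose. The classical inflammatory cytokine genes did not follow. Tnf averaged 272 ± 51.6 CPM in KO cells and 252 ± 38.7 CPM in WT cells (0.11 ± 0.24, adjusted p = 0.784) and Il1b averaged 285 ± 26.3 CPM in KO cells and 218 ± 93.3 CPM in WT cells (0.39 ± 0.31, adjusted p = 0.4). Il6 fell, at 14.7, 17.5, 23.5 and 28.7 CPM in KO libraries, against 53.6, 39.7, 35.9 and 41.1 CPM in WT libraries (-1.01 ± 0.37, adjusted p = 0.0432). That call was lost on leaving out a library (adjusted p = 0.0686 to 0.126 without KO library 1, 2 or 3 or WT library 1, 2 or 4). On HFD its fold change was 1.34 ± 0.40, adjusted p = 0.0139, and the difference between the diets passed the test (-2.35 ± 0.54, adjusted p = 0.00409).

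Of 21 tested acute-phase and complement genes, 10 rose and 1 fell, Orm1 (-1.85 ± 0.56; adjusted p = 0.0507 to 0.108 without KO library 1 or 4 or WT library 2). C3, the central complement component, had 1363, 943, 1502 and 1338 CPM in KO libraries, against 153, 62.2, 51.5 and 57 CPM in WT libraries. The groups did not overlap (3.99 ± 0.39, adjusted p = 9.15e-09). Cd55, which protects cells from complement, averaged 39 ± 3.85 CPM in KO cells and 2.75 ± 0.782 CPM in WT cells (3.82 ± 0.40), and Cp, the ferroxidase ceruloplasmin, averaged 473 ± 53.1 CPM in KO cells and 68.1 ± 10.4 CPM in WT cells (2.80 ± 0.24).

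Of 11 tested genes of itaconate, nitric oxide, arginine and prostaglandin metabolism, 6 rose and 1, Ptgs1, fell. Nos2, the inducible nitric oxide synthase, had 9.97, 4.47, 9.25 and 55.2 CPM in KO libraries, against 2.25, 1.81, 2.19 and 0.655 CPM in WT libraries. KO library 4 held most of the signal (3.50 ± 0.75, adjusted p = 0.00083, 2.21 without it). Ptgs2, the inducible cyclooxygenase, averaged 124 ± 38.8 CPM in KO cells and 34.3 ± 6.53 CPM in WT cells (1.86 ± 0.42), and Ptges was at 2.74 ± 0.52 (1.88 without KO library 4). Arg1 was low in both, at 3.14 ± 2.81 CPM in KO cells and 4.45 ± 4.18 CPM in WT cells (-0.52 ± 0.65, adjusted p = 0.617).

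Of 29 receptors that sense microbes, 16 rose and 1 fell, with a median of 0.54; Tlr5 fell (-1.10 ± 0.33; adjusted p = 0.0552 to 0.0732 without KO library 4 or WT library 4). Clec4e, the glycolipid receptor Mincle, had 292, 213, 328 and 723 CPM in KO libraries, against 27.8, 29.3, 16.1 and 14.7 CPM in WT libraries. All KO libraries were higher (4.14 ± 0.34, adjusted p = 5.11e-10). Clec4d (2.67 ± 0.29), Nod2 (1.43 ± 0.29), Tlr13 (1.21 ± 0.16) and Tlr2 (1.05 ± 0.18) rose too. Of 7 Fc receptor genes, the antibody receptors Fcgr4 (2.26 ± 0.23) and Fcgr1 and the signalling chain Fcer1g (0.44 ± 0.10) rose, and Fcrls fell (-1.17 ± 0.26). Among 25 chemokine receptor and adhesion genes, 10 rose and 4 fell. Itgal, the alpha chain of the integrin LFA-1, had 66.6, 57.8, 78.3 and 150.00 CPM in KO libraries, against 7.37, 9.07, 6.62 and 10.7 CPM in WT libraries (3.38 ± 0.35, adjusted p = 2.01e-08), and the adhesion molecule gene Vcam1 rose (1.16 ± 0.31).

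Many genes typical of resident macrophages fell, and their response differed between the diets. Of 36, all were tested, 15 fell and 6 rose on standard diet, with a median of -0.36. Retnla (chr16:48842609-48844461), a secreted resistin-like protein of alternatively activated macrophages, had 2778, 2048, 1071 and 829.7 CPM in KO libraries, against 12486, 12790.1, 11262 and 10371 CPM in WT libraries. Every KO library was lower (-2.80 ± 0.44, adjusted p = 1.49e-05). Cd163, the scavenger receptor for haemoglobin, had 348, 197, 237 and 113 CPM in KO libraries, against 1109.6, 1061, 1134 and 1185 CPM in WT libraries (-2.33 ± 0.33, adjusted p = 4.07e-06). The lectin genes Cd209f (-1.80 ± 0.45) and Mgl2 (-1.56 ± 0.28), Fcna (-1.38 ± 0.40; adjusted p = 0.0533 to 0.0583 without KO library 4 or WT library 4) and Igf1 (-0.79 ± 0.21) fell. F13a1 fell as well (-0.58 ± 0.21; adjusted p = 0.0544 to 0.215 without KO library 2, 3 or 4 or WT library 1, 2, 3 or 4). The members that rose were Marco (4.75 ± 0.68), Ccl8 (2.73 ± 0.44), Il10 (1.63 ± 0.26), Tmem176a (0.96 ± 0.14), Tmem176b (0.75 ± 0.14) and Klf2 (0.48 ± 0.14). Lyve1 (-1.01 ± 0.44, adjusted p = 0.0912), Timd4 (0.52 ± 0.39, adjusted p = 0.354) and Folr2 (-0.39 ± 0.31, adjusted p = 0.39) did not pass the test. Lyve1 passed in a fit of the 8 libraries alone (adjusted p = 0.0207).

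On HFD the same list had 13 members that rose and 3 that fell, against 10.5% and 11.3% of all genes, with a median of 0.40. The test of the difference between diets called 17 of the 36, 15 of them lower on standard diet (5.23% of all genes) and 2 higher. Other lists also held members lower by this test, namely 9 of 18 adipocyte, 6 of 30 immediate early and heat shock and 4 of 17 dendritic cell genes. On HFD 10 of the 18 adipocyte genes rose and none fell, with a median of 1.34, where 10.5% of all genes rose. Their summed level there was 523 to 674 CPM in KO libraries and 335 to 635 CPM in WT libraries, which overlap. The part of these cells and of handling in the resident list's difference was not tested. Retnla averaged 1942 ± 1059 CPM in KO HFD cells and 831 ± 175 CPM in WT HFD cells and rose there (1.22 ± 0.41, adjusted p = 0.0318); the difference between diets was -4.03 ± 0.60, adjusted p = 3.71e-05. Cd163 averaged 235 ± 95.3 CPM in KO HFD cells and 239 ± 45.3 CPM in WT HFD cells (-0.02 ± 0.32, adjusted p = 0.975; difference -2.30 ± 0.45, adjusted p = 0.000884). Mgl2 averaged 444 ± 139 CPM in KO HFD cells and 226 ± 30.3 CPM in WT HFD cells (0.97 ± 0.27, adjusted p = 0.00956; difference -2.53 ± 0.39, adjusted p = 5.43e-05). In these genes the KO standard diet level lay close to the KO HFD level, and the WT standard diet cells stood apart with the highest level. These are the WT libraries that the third component of all 32 libraries also set apart; the part of that separation in the result was not tested.

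**Figure D3:**
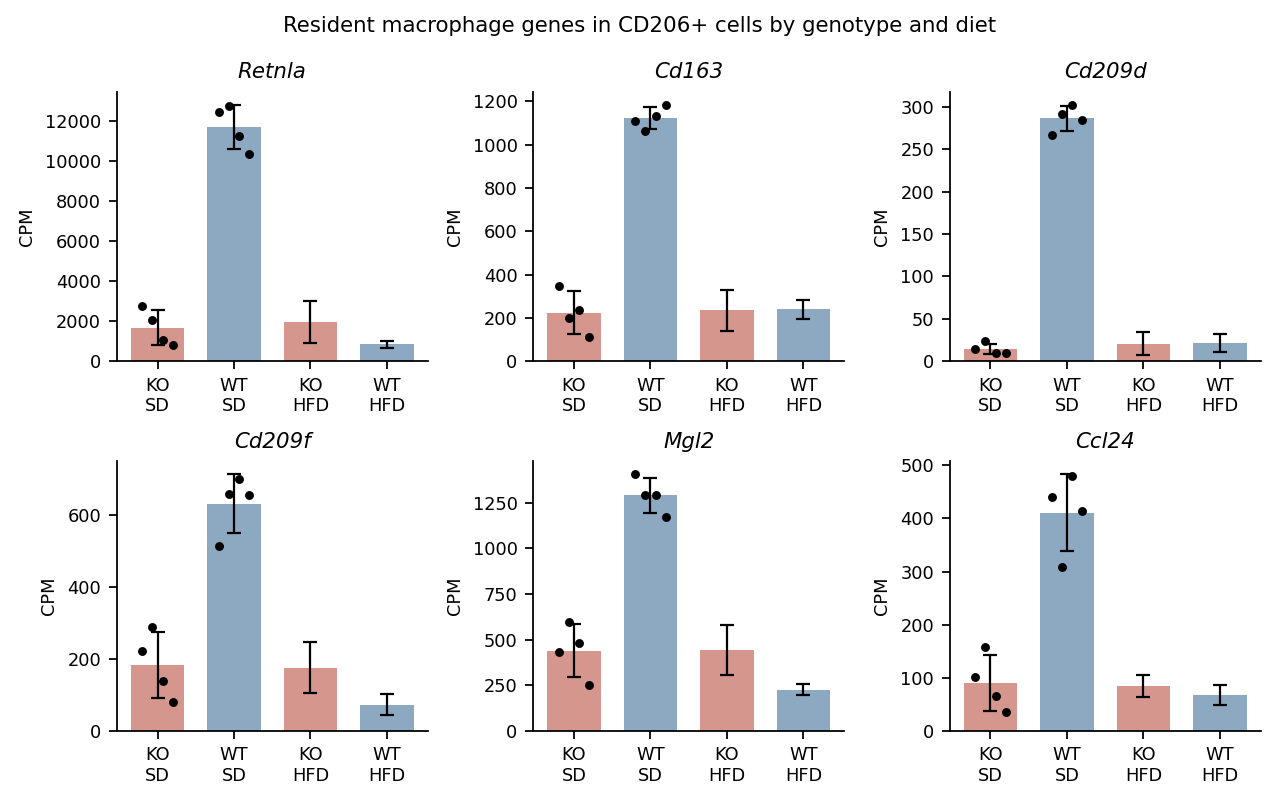
CPM (linear axis from 0) of 6 genes of the resident macrophage list in KO and WT CD206+ cells on standard diet (SD) and on HFD; bars are group means with 1 standard deviation (n = 4), and points are the single standard diet libraries. The WT standard diet mean is the highest of the 4 for each gene drawn, with Retnla at 10371 CPM or more in each of those libraries.

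Lipid-associated macrophage genes, the set that fat macrophages turn on around dying adipocytes, moved little as a list on standard diet. Of 30, 4 rose and 6 fell, with a median of 0.03 and fold changes from -2.84 to 3.10. The members given next are from those that fell. Cd36, a fatty acid transporter, averaged 1337 ± 268 CPM in KO cells and 2578 ± 447 CPM in WT cells (-0.95 ± 0.19), Fabp4, a fatty acid carrier, averaged 118 ± 15.7 CPM in KO cells and 347 ± 146 CPM in WT cells (-1.56 ± 0.32), and Cd9 averaged 24.3 ± 4.93 CPM in KO cells and 45.9 ± 8.91 CPM in WT cells (-0.92 ± 0.25). Mmp12 fell (-2.24 ± 0.72; adjusted p = 0.0597 to 0.105 without KO library 3 or 4 or WT library 1). On HFD 23 of the 30 fell and 1 rose, against 11.3% and 10.5% of all genes. The difference between diets was called for 20 of the 30, all in the positive direction, against 6.63% of all genes.

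Lipid metabolism split by branch. Of 31 tested fatty acid oxidation genes, 10 fell and none rose. Pdk4, a kinase that turns cells from glucose to fat as fuel, had 19.8, 3.55, 10.5 and 2.59 CPM in KO libraries, against 21.4, 57.9, 36.8 and 58 CPM in WT libraries (-2.25 ± 0.51, adjusted p = 0.00155, -2.98 without KO library 1). Acaa2 (-0.60 ± 0.12), Acads (-0.57 ± 0.12) and Pparg (-0.53 ± 0.20) fell, Pparg not in every subset (adjusted p = 0.0813 to 0.248 without KO library 1, 2 or 3 or WT library 1, 2 or 3). Of 30 tested genes of fatty acid uptake and storage, 7 rose and 8 fell, with a median of -0.12 and fold changes from -2.60 to 3.10. Mgll, which encodes a lipase of monoglycerides (-1.59 ± 0.34), and Slc27a3 (-2.60 ± 0.40) were among those that fell.

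In the list of cholesterol efflux and synthesis genes, 13 of 34 tested rose and 1 fell. Without KO library 4, 6 rose. The gene that fell was Elovl6 (-0.84 ± 0.30), whose enzyme lengthens fatty acids and does not handle cholesterol. Its adjusted p was 0.0608 to 0.142 without KO library 1, 2, 3 or 4 or WT library 1, 2 or 3. Nr1h3, the sterol sensor LXR-alpha, had 50.1, 46.6, 57.4 and 76.6 CPM in KO libraries, against 13.6, 15.6, 12.9 and 11.7 CPM in WT libraries. All KO libraries were higher (2.1 ± 0.19, adjusted p = 1.78e-09). The synthesis genes Sqle (1.30 ± 0.30), Fdps (1.26 ± 0.25) and Idi1 (0.89 ± 0.28) rose, Idi1 not in every subset (adjusted p = 0.0579 without KO library 4).

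Of 30 glycolysis and hypoxia genes, 14 rose and 3 fell, with a median of 0.37. Slc2a1, the glucose transporter GLUT1, had 23.8, 22.9, 25.6 and 74.1 CPM in KO libraries, against 15.5, 11.2, 10.1 and 12.4 CPM in WT libraries (1.57 ± 0.31, adjusted p = 0.000389), with KO library 4 highest. The lactate exporter gene Slc16a3 rose (0.94 ± 0.30; adjusted p = 0.0766 to 0.111 without KO library 4 or WT library 3). Ndrg1 (-1.10 ± 0.20) and Adm (-1.09 ± 0.40; adjusted p = 0.054 to 0.133 without KO library 1, 2, 3 or 4 or WT library 1, 2 or 4) fell, as did Slc16a1 (-0.56 ± 0.15). Of 64 tested genes of oxidative phosphorylation, 10 rose and none fell, with a median of 0.12; the share that rose was near the 11.8% of all genes, and 16 rose without WT library 2. The largest were Cox5a (0.70 ± 0.10), Cycs (0.69 ± 0.14), Ndufc2 (0.47 ± 0.11) and Uqcrfs1 (0.34 ± 0.09).

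Of 44 lysosome genes, 10 rose and 1, the protease gene Ctsf, fell (-0.97 ± 0.19); 6 rose without KO library 1 or without WT library 3. Ctsz (0.99 ± 0.12) and Gla, an enzyme of glycolipid breakdown (0.66 ± 0.17), rose. In the list of iron and haem genes, 7 of 19 rose and 6 fell, against 11.8% and 12.7% of all genes. Slc40a1 and Cd163 fell as given above, and the transferrin receptor gene Tfrc averaged 171 ± 16.7 CPM in KO cells and 398 ± 44 CPM in WT cells (-1.22 ± 0.22). Hpgd, which degrades prostaglandins and does not handle iron or haem, fell too (-1.43 ± 0.33).

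Among 18 matrix genes, 3 rose and 5 fell, against 11.8% and 12.7% of all genes. Mmp14, a membrane-bound collagenase, had 114, 87.9, 142 and 299 CPM in KO libraries, against 13.9, 9.9, 8.09 and 8.07 CPM in WT libraries. The groups did not overlap (4.00 ± 0.44, adjusted p = 5.97e-08). Mmp13 (-2.66 ± 0.45) and Adamts1 (-1.49 ± 0.40) fell. Of 44 cell cycle genes, 2 rose and 4 fell. Those that rose were Ccne1 (0.66 ± 0.21; adjusted p = 0.06 to 0.0828 without KO library 2 or WT library 1 or 3) and Mcm4 (0.35 ± 0.13; adjusted p = 0.055 to 0.117 without KO library 2, 3 or 4 or WT library 1 or 2). Those that fell were Kif23 (-1.29 ± 0.15), Cenpa (-1.01 ± 0.16), Cdc20 (-0.85 ± 0.25; adjusted p = 0.063 to 0.126 without KO library 2 or WT library 2) and Foxm1 (-0.72 ± 0.23; adjusted p = 0.0503 to 0.17 without KO library 1 or 2 or WT library 2). On HFD 24 of the 44 fell, against 11.3% of all genes, and none rose.

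Of 30 immediate early and heat shock genes, which respond quickly to handling of cells, 7 fell and 2 rose. Their summed level was 19531 to 36875 CPM in KO libraries and 33402 to 40694 CPM in WT libraries, which overlap, with KO library 4 lowest. The median was -0.20, and -0.0075 without KO library 4. Egr1 averaged 2869 ± 1026 CPM in KO cells and 5922 ± 1073 CPM in WT cells (-1.05 ± 0.24), Jun averaged 1144 ± 271 CPM in KO cells and 2291 ± 282 CPM in WT cells (-1.0 ± 0.20) and Myc averaged 30.6 ± 6.33 CPM in KO cells and 71.7 ± 11 CPM in WT cells (-1.23 ± 0.15). Nr4a2 (1.19 ± 0.23) and Hspa8 (0.45 ± 0.13) rose. The part of handling in other results was not tested.

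**Figure D4:**
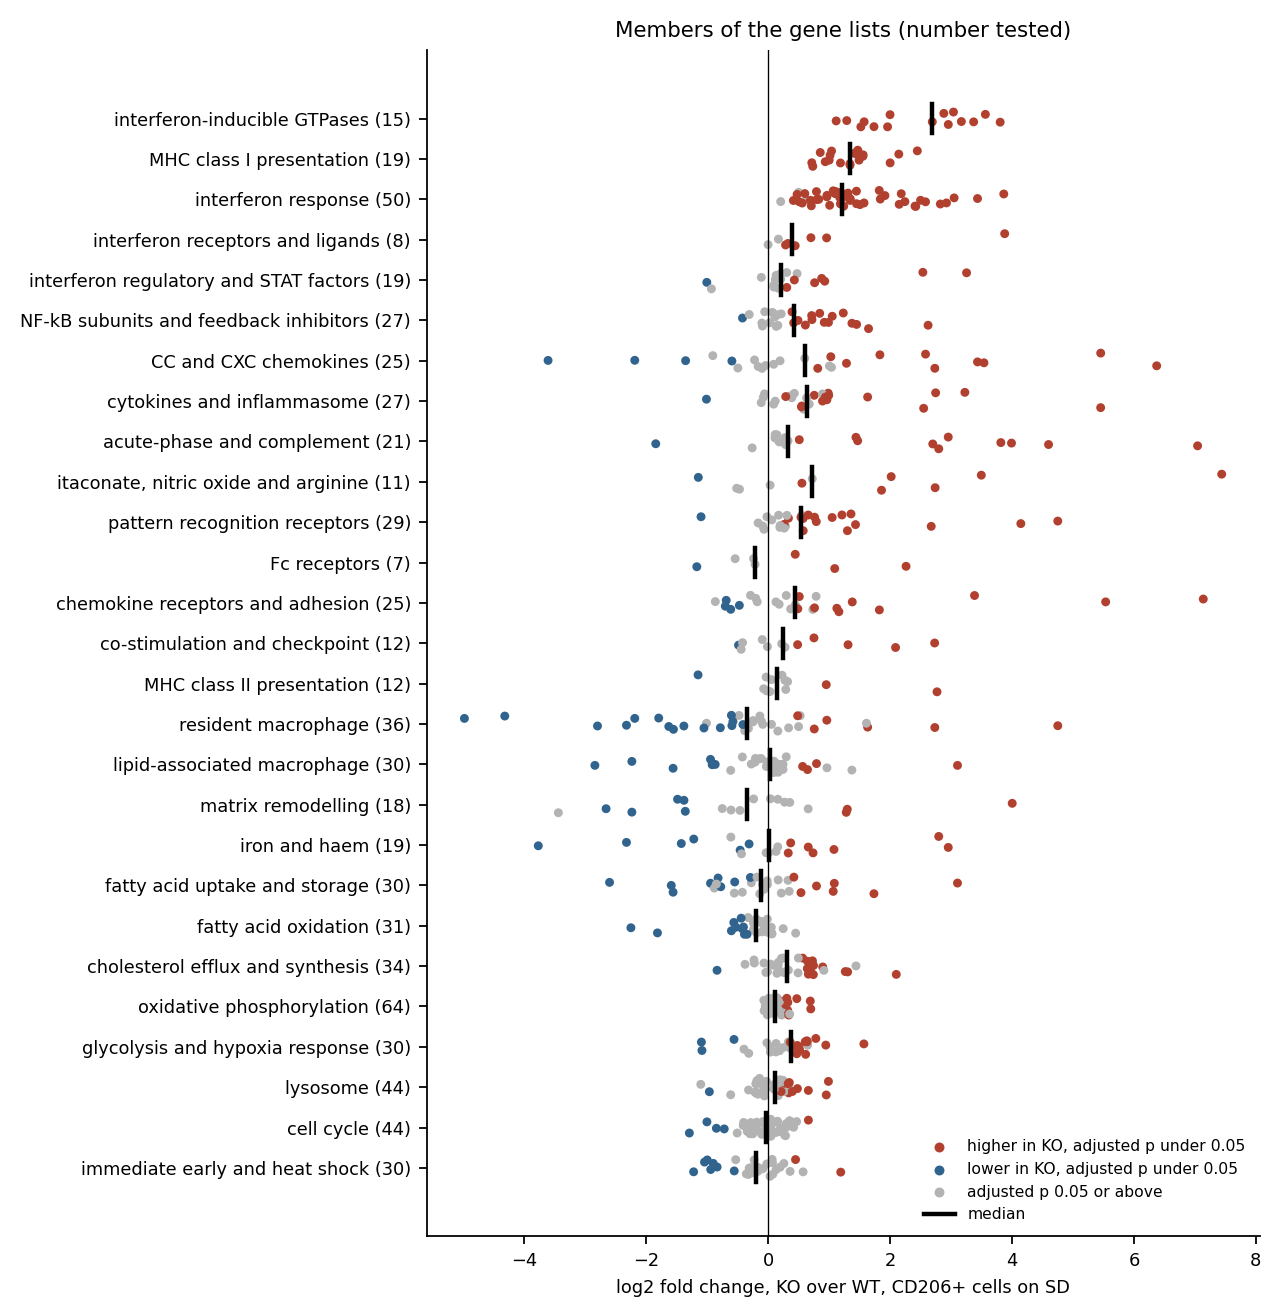
Log2 fold change of KO over WT CD206+ cells on standard diet for each tested member of the gene lists, with the list median; coloured points passed an adjusted p under 0.05. The interferon GTPases (median 2.69), class I presentation (1.34) and interferon response (1.20) lists lie wholly or almost wholly above 0, and the resident macrophage list (-0.36) leans below it.

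Markers of other cell types also moved with the genotype, and in bulk libraries fewer cells of a type and less RNA per cell cannot be told apart. Of 17 tested T-cell genes, 11 rose and 1, Cd28, fell (-1.27 ± 0.38; adjusted p = 0.0553 to 0.0988 without KO library 2 or 3 or WT library 4). Their summed level was 117 to 188 CPM in KO libraries and 22.5 to 39.5 CPM in WT libraries, most of it Cd4, which some macrophages also express. Cd4 had 67.1, 90.1, 95.4 and 102 CPM in KO libraries, against 7.17, 7.96, 6.09 and 11.2 CPM in WT libraries. Without Cd4 the sum was 26.7 to 85.7 CPM in KO libraries and 16.4 to 31.6 CPM in WT libraries, which overlap. Cd3e had 7.09, 2.82, 2.93 and 12.8 CPM in KO libraries, against 0.43, 1.94, 0.952 and 0.491 CPM in WT libraries (2.72 ± 0.62, adjusted p = 0.00154, 3.36 without WT library 2), and Lck rose (2.31 ± 0.60). The part of T-cell RNA in the results for Ifng, Ccl5 and the interferon genes was not tested.

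Of 14 monocyte genes, 6 rose and 1, F13a1, fell, with a median of 0.91, which was 0.21 without KO library 4. Their summed level was 5625 to 6682 CPM in KO libraries and 7729 to 10058 CPM in WT libraries, lower in every KO library, and most of it was F13a1, which averaged 3505 ± 739 CPM in KO cells and 5239 ± 805 CPM in WT cells. Without F13a1 the sum was 2596 to 3165 CPM in KO libraries and 2751 to 3698 CPM in WT libraries, which overlap. Ly6c2 had 8.43, 4.13, 9.61 and 34.3 CPM in KO libraries, against 0.67, 0.833, 0.333 and 0.491 CPM in WT libraries (4.58 ± 0.59, adjusted p = 7.86e-07, 3.68 without KO library 4). Plac8 (3.48 ± 0.48, 4.08 without WT library 2) and Ms4a4c (3.03 ± 0.41) rose. Of 9 tested neutrophil genes 3 rose, namely Csf3r (1.27 ± 0.21) and Trem1 (2.05 ± 0.49, 2.69 without WT library 4), and the low S100a8, at 0.614 ± 0.716 CPM in KO cells and 0.108 ± 0.0688 CPM in WT cells (2.41 ± 0.81; adjusted p = 0.0544 to 0.256 without KO library 3 or 4 or WT library 1 or 4). None of the 9 neutrophil genes fell by the test, but their median was -0.002 and their lowest fold change -3.44. The neutrophil sum was 90.1 to 127 CPM in KO libraries and 40.2 to 54.7 CPM in WT libraries, most of it Csf3r. Without Csf3r it was 6.27 to 19 CPM in KO libraries and 3.4 to 6.55 CPM in WT libraries, which overlap. Of 17 dendritic cell genes, 4 rose, with Fscn1 at 2.43 ± 0.31, and 6 fell, with Siglech at -2.44 ± 0.41. Over all genes 11.8% rose and 12.7% fell. In the list of natural killer and innate lymphoid genes, 4 of 11 rose and 3 fell; Klrk1 (1.55 ± 0.24), Rora (-0.55 ± 0.17) and Il1rl1 (-2.01 ± 0.21) were named by the rule, Klrk1 encoding the activating receptor NKG2D and Il1rl1 the interleukin-33 receptor. Their sum was 48.1 to 59.6 CPM in KO libraries and 100.2 to 131 CPM in WT libraries, and without Il1rl1 it was 25 to 43.7 CPM in KO libraries and 18.5 to 26.6 CPM in WT libraries, which overlap. Rora did not pass in every subset (adjusted p = 0.0584 to 0.0985 without KO library 2 or 3 or WT library 1 or 2). Of 11 B-cell genes 1 fell, Tnfrsf17 (-1.04 ± 0.31; adjusted p = 0.0744 without KO library 3). Of 7 eosinophil genes 1 rose, Il5ra (1.17 ± 0.43; adjusted p = 0.0555 to 0.202 without KO library 1 or 4 or WT library 1, 2, 3 or 4), and 1 fell, Ear2. Of 7 mast cell genes 1 rose, Hdc (2.20 ± 0.62).

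Endothelial genes fell in KO libraries, with some stromal and fat-cell genes. Of 14 endothelial genes, 12 fell and none rose, with a median of -1.55. Their summed level was 223 to 271 CPM in KO libraries and 445 to 518 CPM in WT libraries, with no overlap. Tie1 had 8.33, 7.54, 8.03 and 6.29 CPM in KO libraries, against 30.6, 30.5, 26.2 and 23.6 CPM in WT libraries (-1.88 ± 0.45, adjusted p = 0.0025), and Cldn5 (-1.75 ± 0.46), Cdh5 (-1.81 ± 0.46) and Egfl7 (-1.83 ± 0.28) fell. In CD11c+ cells on standard diet 9 of the 14 endothelial genes fell and 1 rose, against 13.6% and 13.2% of all genes. On HFD none fell or rose (median -0.49), and the difference between diets was called for 1. The part of the separation of the WT standard diet libraries in this was not tested. Of 17 tested stromal genes 6 fell and none rose on standard diet, and 17 fell on HFD, against 11.3% of all genes. Their sum on standard diet was 737 to 1364 CPM in KO libraries and 1021 to 1858 CPM in WT libraries, which overlap. Sparc, Pdgfrb, Col6a2 and Mfap5 were at -1.79, -1.52, -1.41 and -1.52 there. Of 18 tested adipocyte genes 6 fell and 2 rose, with sums of 488 to 702 CPM in KO libraries and 713 to 1080.0 CPM in WT libraries. Without Fabp4 the sums were 389 to 576 CPM in KO libraries and 473 to 567 CPM in WT libraries, which overlap. Aqp7, a glycerol channel, and Lep, the gene of leptin, were at -1.65 ± 0.40 and -2.33 ± 0.58 (-3.14 without KO library 2). Pck1 fell (-1.55 ± 0.44; adjusted p = 0.0524 without KO library 4). Of 10 mesothelial genes 1 fell, Cldn15 (-1.06 ± 0.39; adjusted p = 0.0556 to 0.162 without KO library 1, 2, 3 or 4 or WT library 1 or 2). None of the 4 tested red cell and platelet genes passed the edgeR test. Fabp4 and Cd36 belong to fat cells or vessels as well as to macrophages, and the part of those cells in their decrease was not tested.

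**Figure D5:**
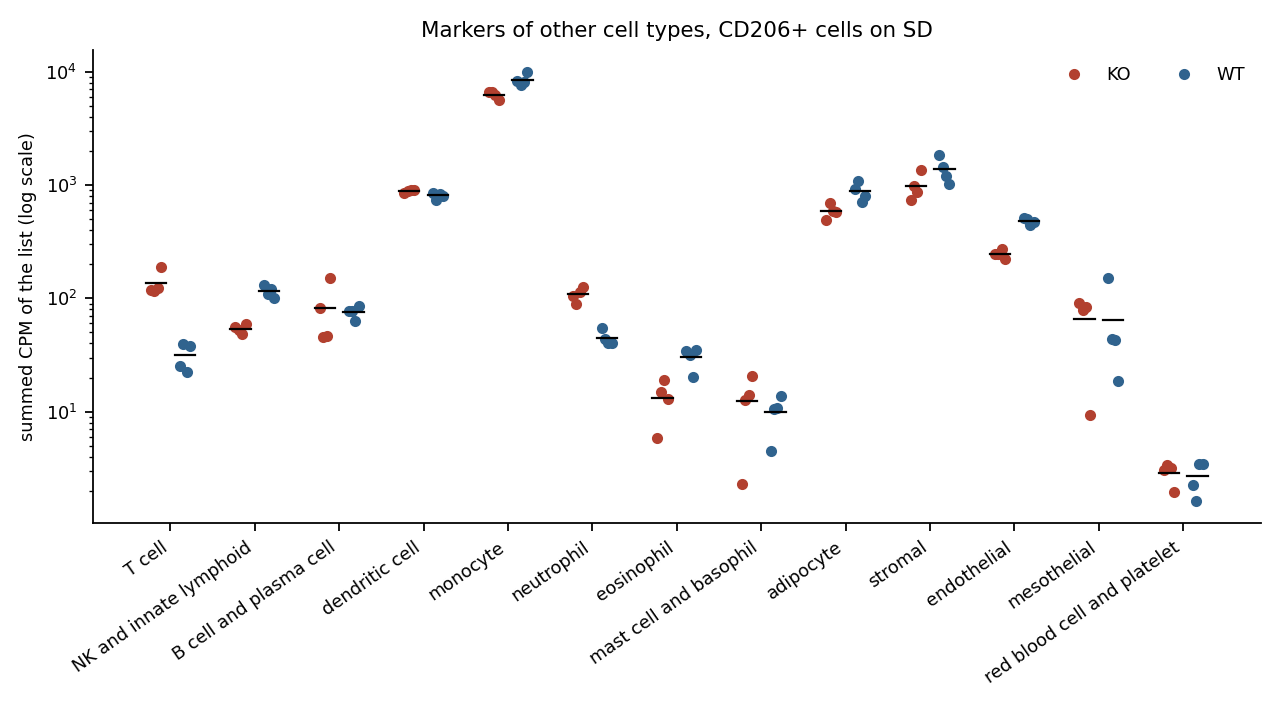
Summed CPM (log axis) of the tested marker genes of other cell types in each KO and WT CD206+ library on standard diet; points are single libraries and lines are group means. Endothelial sums lie at 223 to 271 in KO libraries, all below the WT libraries, and T-cell sums lie all above them.

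Many effects of the genotype were shared between diets and others were not. Of the 1594 genes that rose on standard diet, 673 also rose on HFD (42.2% of them, and 47.8% of those that rose on HFD) and 87 fell there. Of the 1706 that fell, 454 also fell on HFD (26.6% of them, and 29.8% of those that fell on HFD) and 65 rose there. Over all genes tested, 10.5% rose and 11.3% fell on HFD. The difference between diets itself was called for 1595 genes (11.9%), 892 positive and 703 negative, where positive means a higher KO over WT ratio on standard diet. Tlr13, a sensor of bacterial ribosomal RNA, had 91.5, 109.9, 111 and 139 CPM in KO libraries, against 50.4, 46.5, 50.2 and 48.2 CPM in WT libraries on standard diet (1.21 ± 0.16, adjusted p = 1.83e-06), against a fold change of -1.06 ± 0.16 on HFD (difference 2.27 ± 0.23, adjusted p = 3.13e-07). Glipr1 (2.07 ± 0.21) and Plxdc1 (3.39 ± 0.36) were further positive differences; Plxdc1 changed little on standard diet itself (0.01 ± 0.26, adjusted p = 0.988) and its sign there depended on the setting. Dnase1l3, a secreted nuclease, averaged 27.4 ± 2.61 CPM in KO cells and 36 ± 7.31 CPM in WT cells on standard diet (-0.40 ± 0.29) and changed by 3.27 ± 0.35 on HFD (difference -3.66 ± 0.45, adjusted p = 3.44e-06). Abcg3 (-1.38 ± 0.17), Rtn1 (-1.98 ± 0.26), Trappc5 (-1.33 ± 0.14) and Tspan32 (-2.06 ± 0.22) were the other negative differences. Of these, Rtn1 rose on standard diet (0.55 ± 0.17; adjusted p = 0.0503 without KO library 1).

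The genotype effect was also compared with that in CD11c+ cells of the same diet. The difference between populations was called for 884 genes (6.57%), 333 positive (2.48%) and 551 negative (4.1%), where positive means a higher KO over WT ratio in CD206+ cells. Samples with the same number deviated together across the populations, and with that pairing in the fit the counts were 1612, 692 and 920. The list counts and single-gene values of this difference given below come from the fit without that pairing. In the resident list, 13 of 36 were lower in CD206+ cells by this test (4.1% of all genes) and 2 higher. In CD11c+ cells 16 of its members rose and 6 fell, against 13.2% and 13.6% of all genes. Retnla was not among those called by the test of the difference without pairing (difference -0.92 ± 0.58, adjusted p = 0.388). It fell in CD11c+ cells too (-1.88 ± 0.42). Acute-phase and complement genes also had 12 of 21 negative differences. Maf, a factor of resident macrophages, averaged 150.27 ± 14.6 CPM in KO cells and 135 ± 13.9 CPM in WT cells in CD206+ cells (0.16 ± 0.13) and had 1.85 ± 0.14 in CD11c+ cells (difference -1.69 ± 0.19, adjusted p = 4.54e-06). Aoah (-2.08 ± 0.24), Clmp (-1.43 ± 0.17), Fam213b (-1.77 ± 0.18) and Tfec (-3.25 ± 0.31) were the other negative differences, Aoah encoding an enzyme that inactivates bacterial lipopolysaccharide. Bid (0.96 ± 0.14), Cd52 (1.60 ± 0.24), Hcar2 (2.78 ± 0.42), Nr4a2 (2.16 ± 0.32) and Slc13a3 (1.99 ± 0.30) were the positive ones, Hcar2 encoding the niacin receptor.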

How the data were processed

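RNA-seq of sorted adipose tissue macrophages was deposited as raw counts per gene symbol, 1 table per library. Per the submitters' processing notes, the tools were Trimmomatic 0.35 and TopHat2 2.1.0, with SAMtools 0.1.18 and FastQC 0.11.4, and the build was mm10 (GRCm38); their roles are not stated. Which counter, annotation and strand setting were used is not given in the sources used here, so overlapping and antisense genes, and near-identical copies, are uncertain. The 5 rows that name no gene were left out: in the 8 libraries, reads outside genes came to 8.44% to 11.1% and ambiguous reads to 0.992% to 1.31% of all counts. The 8 libraries held 17619638 to 21588411 gene counts, and no pair of a group agreed within sampling noise (chi-square per degree of freedom 16.5 to 60.8).

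Samples were grouped by their labels. All 32 libraries entered one fit with a mean for each of 8 groups (R 4.3.3, edgeR 4.0.16, limma 3.58.1): trimmed mean of M values scaling, filterByExpr with a minimum count of 10, quasi-likelihood tests and Benjamini-Hochberg adjustment over 13453 genes for each contrast, with a threshold of 0.05. The interactions tested the genotype effect on standard diet minus that on HFD, and in CD206+ minus CD11c+ cells. The script was tested on simulated data. Same-numbered KO and WT samples did not deviate together (correlations of deviations -0.13 to 0.07), so no pairing was used; same-numbered CD206+ and CD11c+ samples did (0.14 to 0.32), and blocked counts stand beside that interaction. Alternatives were RLE scaling, no count filter, a mean of at least 1 CPM, DESeq2 1.42.0, the libraries of the contrast alone, a replicate block, and leaving out each of the 8 replicates.

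The members and the 41 gene lists were chosen with earlier results of these data known. Named were Tnfaip3, Lyz2, Mrc1 and Itgax. The 12 genes with the largest fold change and the 5 with the smallest p in each direction were named where at least 10 CPM were reached, the adjusted p was under 0.05 and KO and WT libraries did not overlap. Up to 4 called members per list with at least 5 CPM, and 5 genes per direction in each interaction with at least 10 CPM, were also named. Of genes meeting the criteria, 35 gene models were counted but not named. Some genes that met these criteria are not reported here. Other genes, chiefly list members, were chosen after their values were seen. Of the listed symbols, 865 were in the tables and 5 were not. Promoter windows are RefSeq sequences of GRCm38.p6, searched over 250 bases before the start.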

Additional observations from a re-analysis of the deposited data

Results flagged for a closer look

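Some single libraries stood far from the other 3 of their group, by Dixon's criterion for 4 values. Among 474 groups of 4 (each named gene in the KO and in the WT libraries), 34 held such a library. At 1 in 20, independent groups of normally distributed values would give 23.7. The genes share the same 8 libraries, so the groups are not independent and this comparison does not test chance. H2-DMb2 (4.46 CPM) was high in KO library 1. Hspa8 (2380 CPM) was low in KO library 1. Lep (5.88 CPM) and Tfrc (195 CPM) were high in KO library 2. Gla (49.3 CPM) was low in KO library 2. Ccl17 (0.0902 CPM) was high in KO library 3. Cd274 (217 CPM), Clec4d (43 CPM), Cxcl10 (557 CPM), Cxcl9 (255 CPM), Fcer1g (1200 CPM), Gbp5 (147 CPM) and H2-Eb2 (5.18 CPM) were high in KO library 4. Icam1 (849 CPM), Nod2 (9.67 CPM), Nos2 (55.2 CPM), Ptprc (689 CPM), Slc2a1 (74.1 CPM) and Sparc (102 CPM) were high in KO library 4. Jun (740 CPM) and Slc16a1 (22.7 CPM) were low in KO library 4. C3 (153 CPM) and Idi1 (35.9 CPM) were high in WT library 1. Nfkbia (971 CPM) was low in WT library 1. Gbp7 (86.2 CPM) was high in WT library 2. Ttn (0.324 CPM) was low in WT library 2. Ifnar1 (179 CPM) was high in WT library 3. Adm (4 CPM) and Cd274 (14.3 CPM) were low in WT library 3. Fcna (774 CPM), Hspa8 (2200 CPM) and Trem1 (4.42 CPM) were high in WT library 4. Dnase1l3 (25.2 CPM) and Nfkb2 (84.5 CPM) were low in WT library 4.

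Differences between the diets in the genotype effect, tested as an interaction by edgeR at an adjusted p under 0.05, were called for 81 of the 237 genes named. Over all genes tested the share was 11.9%. Some of the 237 were named by this test or by their standard diet changes, so the choice of genes can raise the count. Values are the log2 KO over WT fold change on standard diet minus that on HFD. Adgre1 (0.8), Clec4d (2.24), Colq (3.44), Ctsz (0.7), Fcgr4 (1.19), Fdps (1.35), Fpr1 (2.32), Gla (0.78) and Glipr1 (2.07) rose on standard diet with a fold change above that on HFD. Hdc (2.73), Ifnar1 (0.47), Ifngr2 (0.85), Il10 (1.17), Mcm4 (0.61), Mmp14 (2.22), Nfkb1 (0.78), Nr1h3 (1.6) and Pgap2 (0.9) did so too. Relb (0.54), Slc2a1 (1.35), Spi1 (0.39), Sqle (1.75), Tlr13 (2.27), Tlr2 (0.86) and Tnfaip2 (2.27) did the same. Abcg3 (-1.38), Aff3 (-4.23), Apbb1 (-2.41), Ccl24 (-2.5), Cd163 (-2.3), Cd209a (-4.34), Cd209b (-3.74), Cd209d (-4.27) and Cd209e (-3.97) fell on standard diet with a fold change below that on HFD. Cd209f (-3.08), Cxcl12 (-2.36), Cxxc5 (-1.27), Ear2 (-3.57), Egfl7 (-1.49), Egr1 (-1.44), F13a1 (-1.35), Fcna (-2.18) and Fcrls (-1.14) did so too. H2-DMb2 (-1.66), Icosl (-0.83), Il6 (-2.35), Irf4 (-1.65), Jun (-1.53), Kif23 (-0.79), Mgl2 (-2.53), Mucl1 (-7.51) and Ndnf (-2.36) did the same. Orm1 (-3.35), Pck1 (-4.97), Pdk4 (-2.25), Ptgs1 (-1.74), Retnla (-4.03), Rnase2a (-10.2), Sec16b (-3.9), Siglech (-2.65) and Slc27a3 (-2.9) belonged to the same set. Slc40a1 (-2.62), Tfrc (-2.02), Tlr5 (-1.84), Tnfrsf17 (-2.01) and Trappc5 (-1.33) followed. Fam213b (-0.72), Gbp3 (-1.08), Gbp7 (-1.1), Klrk1 (-1.15) and Rtn1 (-1.98) rose on standard diet with a fold change below that on HFD. Cd9 (2.1) and Pparg (1.05) fell on standard diet with a fold change above that on HFD. Dnase1l3 (-3.66), Itgax (3.63), Lyve1 (-2.05), Plxdc1 (3.39), Rel (0.54), Rela (0.37), Timd4 (-1.88) and Tspan32 (-2.06) differed without a call on standard diet alone.

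The genotype effect on standard diet differed between CD206+ and CD11c+ cells for 49 of the named genes by the same test, without pairing of same-numbered samples. Over all genes tested the share was 6.57%, and some of the 49 were named by this test. Values are the log2 fold change in CD206+ cells minus that in CD11c+ cells. Ccl5 (1.69), Cd14 (1.01), Cd52 (1.6), Cd55 (2.74), Gbp8 (2.2), Glipr1 (1), Hcar2 (2.78), Icam1 (0.97) and Itgal (2.27) rose on standard diet with a fold change above that in CD11c+ cells. Jak2 (0.86), Klrk1 (1.93), Nr4a2 (2.16), Slc13a3 (1.99), Tmem176a (0.72), Tmem176b (0.87) and Traf1 (0.83) did so too. Apbb1 (-2.02), Ccl24 (-1.49), Cd209a (-2.81), Cenpa (-0.73), Clmp (-1.43), Ear2 (-2.6), Foxm1 (-1.07), Igf1 (-1.62) and Kif23 (-1.4) fell on standard diet with a fold change below that in CD11c+ cells. Matk (-0.64), Mucl1 (-4.09), Myc (-0.97), Orm1 (-3.55), Pf4 (-1.66), Rnase2a (-6.74), Slc9a4 (-1.27) and Tfrc (-2.28) did so too. Aoah (-2.08), Cd40 (-1.43), Cfb (-1.45), Cp (-1.66), Csf3r (-1.5), Fam213b (-1.77) and Oas1g (-1.96) rose on standard diet with a fold change below that in CD11c+ cells. Bid (0.96), Dnase1l3 (-2.51), Folr2 (-1.81), Lyz2 (0.74), Maf (-1.69), Mrc1 (-0.63), Oas2 (-1.7), Tfec (-3.25) and Timd4 (-2.65) differed without a call on standard diet alone.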

How the results depend on the processing

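The number of genes that changed in CD206+ cells on standard diet ranged from 3036 to 3532 under the alternatives that kept all 8 libraries, against 3300, and from 2522 to 3118 when single libraries were left out. The counts of genes that rose and fell were 1365 to 1690 and 1120 to 1685 on leaving out a library, the lowest count of decreases without KO library 4. With the replicate block, 3390 genes changed. The numbers do not pair KO with WT samples. For the difference between populations, DESeq2 called 549 genes with a positive difference, and the replicate block, whose numbers do pair the populations, called 1612 genes, 692 positive and 920 negative; the cause was not tested. The other counts of genes stayed within 1.5 times their value.

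Signs turned for genes that were not called. Bid was 0.0053 with no count filter and 0.0047 with the libraries of the contrast alone, and Plxdc1 was -0.0042 with a mean of at least 1 CPM. On leaving out a library, the log2 fold change of Bid ranged from -0.069 to 0.078, of Plxdc1 from -0.11 to 0.27, of Itga2b from -0.68 to 0.13, of Itgax from -0.12 to 0.68, of Arg1 from -1.30 to 0.38 and of Rel from -0.018 to 0.12. The causes were not tested. With all 8 libraries kept, calls were lost for Adm, Cldn15, F13a1, Pparg, Ccl17, Elovl6 and Il5ra with no count filter (adjusted p = 0.0545 to 0.0822), for Il5ra (0.0636) and Tlr5 (0.0508) with DESeq2, for Pparg (0.115), Ccne1 (0.116) and Mcm4 (0.0529) with the libraries of the contrast alone, and for Elovl6 (0.0525) and Mcm4 (0.0539) with the replicate block. With that block Lyve1 came to pass (adjusted p = 0.0354). Over the named genes and all alternatives, 3536 values kept direction and side of the threshold, 128 were no longer past it, 15 came to pass it and 17 turned. The precision rests on 4 libraries a group, and genes near the count minimum are measured least well.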
